A study of Mus musculus with 12 samples.

Results

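The retinal response to fluvastatin alone was examined in 6 of the 12 libraries of the series, 3 from retinae treated with fluvastatin and 3 from retinae treated with PBS, the vehicle control. Gene counts were available for 25655 genes, of which 15139 had at least 10 counts in 3 of the 6 libraries and were tested. All mice were C57BL/6J animals of 8 to 10 weeks, and the optic nerve of the left eye was crushed in each (optic nerve crush, ONC), PBS animals included. A single intravitreal injection of fluvastatin or PBS followed the crush, and whole retinae were taken 2 days after ONC. The 3 libraries of retinae injected with matrix-bound nanovesicles (MBV), vesicles prepared from extracellular matrix, served as a second reference because they carry the same kind of crush and injection. No uninjured retina entered these comparisons, so the values describe a treatment of injured tissue and not the injury.

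Fluvastatin is a statin, a drug that blocks the synthesis of mevalonate. Mevalonate is the precursor of cholesterol and of the isoprenoid groups that anchor small GTPases to membranes. Cells sense sterol through SCAP and INSIG proteins in the endoplasmic reticulum. When sterol is low, SCAP escorts SREBP transcription factors to the Golgi, where proteases release them, and SREBP2 then raises transcription of the cholesterol synthesis enzymes and of genes for LDL uptake. In the retina, Müller glia and the pigment epithelium handle much of the lipid traffic, and photoreceptors renew lipid-rich outer segments.

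The 9 libraries held 21349516 to 30992040 counts. The biological coefficient of variation among replicates within groups was 7.72% in the fit of the 6 fluvastatin and PBS libraries. It was 9.94% in the fit of the fluvastatin and MBV libraries. The labels place the PBS libraries in a different set of library numbers from the fluvastatin and MBV libraries, so that set and treatment cannot be told apart against PBS, whereas fluvastatin and MBV share a set. Fluvastatin replicate 1 stood as near to the PBS libraries (SD of log2 differences over genes 0.389 to 0.429) as to the other fluvastatin libraries (0.407 and 0.413), while the other two fluvastatin libraries lay 0.318 apart. Recoverin, Rcvrn, which marks photoreceptors, was at 567, 596 and 545 CPM in the PBS libraries and 862, 818 and 763 CPM in the fluvastatin libraries. CPM are counts scaled by edgeR's TMM factors over the 9 libraries, listed in the order of replicates 1, 2 and 3. Fold changes and false discovery rates (FDR) are from edgeR with 3 libraries per group, and standard errors (SE) were derived from its test statistics.

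Genes of cholesterol synthesis were higher in fluvastatin retinae. Of the 20 enzymes on the list, 18 passed an FDR of 0.05 with higher counts than in PBS retinae and none with lower counts, and the median log2 fold change was 0.32. Over all 15139 genes, 12.2% were higher and 12.7% were lower at that FDR, with a median log2 fold change of -0.0012. In 18 of the 20 enzymes all 3 fluvastatin libraries lay above all 3 PBS libraries, against 20.9% of all genes. The exceptions to both counts were Tm7sf2, a sterol reductase (log2 fold change 0.17 ± 0.12, FDR 0.34), and Hsd17b7, a sterol ketone reductase (log2 fold change -0.080 ± 0.077, FDR 0.47).

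The sequences just upstream of 4 sterol genes are shown because their levels carry this comparison and their promoters hold the box bound by NF-Y, a known partner of SREBP, and in Hmgcs1 also a sterol element that SREBP is known to bind. They are the 250 bases before the RefSeq start on the gene's own strand, with positions found by exact match to GRCm39, and capitals mark the NF-Y box CCAAT on either strand and, in Hmgcs1, also the sterol element TCACNCCAC.
Hmgcs1: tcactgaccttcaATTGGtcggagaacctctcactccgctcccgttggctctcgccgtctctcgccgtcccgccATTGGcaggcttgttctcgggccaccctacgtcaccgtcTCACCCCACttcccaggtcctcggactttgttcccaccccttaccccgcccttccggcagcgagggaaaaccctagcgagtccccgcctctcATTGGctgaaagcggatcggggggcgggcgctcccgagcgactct
Mvd: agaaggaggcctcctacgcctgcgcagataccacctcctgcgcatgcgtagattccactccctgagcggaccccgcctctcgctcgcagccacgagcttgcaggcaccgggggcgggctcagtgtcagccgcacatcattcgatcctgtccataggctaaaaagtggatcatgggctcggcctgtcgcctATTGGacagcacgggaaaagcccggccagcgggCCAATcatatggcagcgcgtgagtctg
Idi1: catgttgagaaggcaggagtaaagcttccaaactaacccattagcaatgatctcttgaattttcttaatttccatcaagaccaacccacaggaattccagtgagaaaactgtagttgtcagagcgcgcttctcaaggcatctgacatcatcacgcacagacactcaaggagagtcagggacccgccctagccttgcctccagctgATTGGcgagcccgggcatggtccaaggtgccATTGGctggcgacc
Insig1: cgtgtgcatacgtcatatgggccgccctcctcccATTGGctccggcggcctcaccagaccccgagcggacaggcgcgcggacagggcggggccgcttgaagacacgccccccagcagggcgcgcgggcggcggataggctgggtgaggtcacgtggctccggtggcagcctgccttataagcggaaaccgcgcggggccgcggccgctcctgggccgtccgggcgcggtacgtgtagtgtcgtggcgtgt
These lie at chr13:120151637-120151886 (plus strand), chr8:123170162-123170411 (minus strand), chr13:8935392-8935641 (plus strand) and chr5:28276160-28276409 (plus strand). Of the 15 enzymes on the list with an entry in the promoter table, 14 held CCAAT on at least 1 strand in this window, compared with 37.5% of the 27025 genes in that table and 40.2% of the 11864 tested genes that it covers. The Sp1 box GGGCGG, on either strand, was also in 14 of the 15, compared with 35.4% of all genes and 61.2% of tested genes. Tm7sf2 and Hsd17b7, which did not pass the FDR against PBS, held both boxes. TCACNCCAC, on either strand, was in Hmgcs1 alone of the 15, 137 to 129 bases before the start, compared with 1.22% of all genes, and it overlapped neither of the other motifs there. These matches describe letters in a window and are not evidence of binding.

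Hmgcs1, an early enzyme of the mevalonate branch, lies at chr13:120151915-120169796. It was at 154, 139 and 163 CPM in PBS retinae and 212, 210.45 and 235 CPM in fluvastatin retinae (log2 fold change 0.52 ± 0.065, FDR 0.00201). Every fluvastatin library lay above every PBS library, and the gain was 1.44-fold.

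Mvd, mevalonate diphosphate decarboxylase, had the highest fold change of the list. It was at 7.33, 7.16 and 7.96 CPM in PBS and 13.7, 12.9 and 12.1 CPM in fluvastatin retinae, 1.73-fold higher (log2 fold change 0.79 ± 0.089, FDR 0.00175). The neighbouring steps of the mevalonate branch were also higher, with log2 fold changes of 0.46 ± 0.071 for Idi1, an isomerase, 0.45 ± 0.088 for Pmvk, a kinase, and 0.29 ± 0.086 for Mvk, the kinase before it (FDR 0.00378, 0.00843 and 0.0401). Fdps, which makes farnesyl diphosphate at the branch to the isoprenoids, was at 24.3, 24.47 and 24.8 CPM in PBS and 34.54, 31.7 and 33.2 CPM in fluvastatin retinae (log2 fold change 0.43 ± 0.053, FDR 0.00194). Fdft1, squalene synthase and the entry to the sterol branch, was at 60.4, 58.6 and 59.9 CPM in PBS and 77.1, 78.9 and 75.3 CPM in fluvastatin retinae (log2 fold change 0.37 ± 0.043, FDR 0.00177). The 3 fluvastatin values of Fdps and Fdft1 were clear of the PBS values in each case. Fdps shares positions with Gm43738 on the same strand, and Fdft1 with Ctsb on the other, so reads of such pairs cannot be told apart without the counting options.

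Steps after squalene were also higher. Sqle, squalene epoxidase, changed by 0.40 ± 0.062 on the log2 scale, Lss, which closes the sterol rings, by 0.30 ± 0.066, and Cyp51, which removes a methyl group, by 0.28 ± 0.043 (FDR 0.0038, 0.014 and 0.00398). Msmo1, Nsdhl, Ebp and Sc5d, which reshape the sterol, changed by 0.35 ± 0.060, 0.30 ± 0.065, 0.30 ± 0.084 and 0.25 ± 0.042 (FDR 0.0056, 0.0117, 0.0307 and 0.0052). Dhcr7, the last step of the Kandutsch-Russell branch, was at 21.99, 22.4 and 22.3 CPM in PBS and 30.4, 30.1 and 34.48 CPM in fluvastatin retinae (log2 fold change 0.51 ± 0.066, FDR 0.00224). Acat2, a thiolase that makes the acetoacetyl-CoA for Hmgcs1, changed by 0.32 ± 0.077 (FDR 0.0193). Calls for 14 of the 18 enzymes stood in all 13 alternative settings, and those for Acat2, Mvk, Lss and Ebp were lost in at least 1. Without PBS replicate 1, 14 enzymes were past the FDR.

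Genes that control SREBP or take up LDL did not move as a block, with 3 of 14 higher, 2 of 14 lower and a median log2 fold change of 0.023. The shares of all genes were 12.2% higher and 12.7% lower. Insig1, the endoplasmic reticulum anchor that is itself an SREBP target, was at 83.01, 77.4 and 89.55 CPM in PBS and 108, 113 and 117 CPM in fluvastatin retinae (log2 fold change 0.43 ± 0.058, FDR 0.00249). The groups did not overlap. Lrp8, a receptor for reelin and apolipoprotein E, was higher by 0.33 ± 0.043 (FDR 0.00229), but its MBV libraries, at 123, 134 and 111 CPM, overlapped the fluvastatin libraries, at 118, 119 and 121 CPM.

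Srebf1, which encodes SREBP1, moved the other way. It was at 123, 122 and 123 CPM in PBS, 81.8, 82.9 and 83.01 CPM in fluvastatin and 84.47, 79.8 and 92.9 CPM in MBV retinae (log2 fold change -0.57 ± 0.037, FDR 0.000355 against PBS), so that both injected agents sat below PBS. Mbtps2, the site-2 protease that frees SREBPs, was lower, at a log2 fold change of -0.35 ± 0.052 against PBS (FDR 0.00332). Srebf2, which encodes SREBP2, was at 176, 166 and 186 CPM in PBS and 189, 193 and 195 CPM in fluvastatin retinae and did not pass the test (log2 fold change 0.13 ± 0.046, FDR 0.07), although it passed without PBS replicate 3. Stard4, a sterol carrier, likewise did not pass (log2 fold change 0.19 ± 0.072, FDR 0.0874) except without that replicate, where 5 members instead of 3 were higher. Scap, Insig2, Mbtps1, Npc1, Npc2 and Vldlr had FDRs between 0.267 and 0.921.

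**Figure D1:**
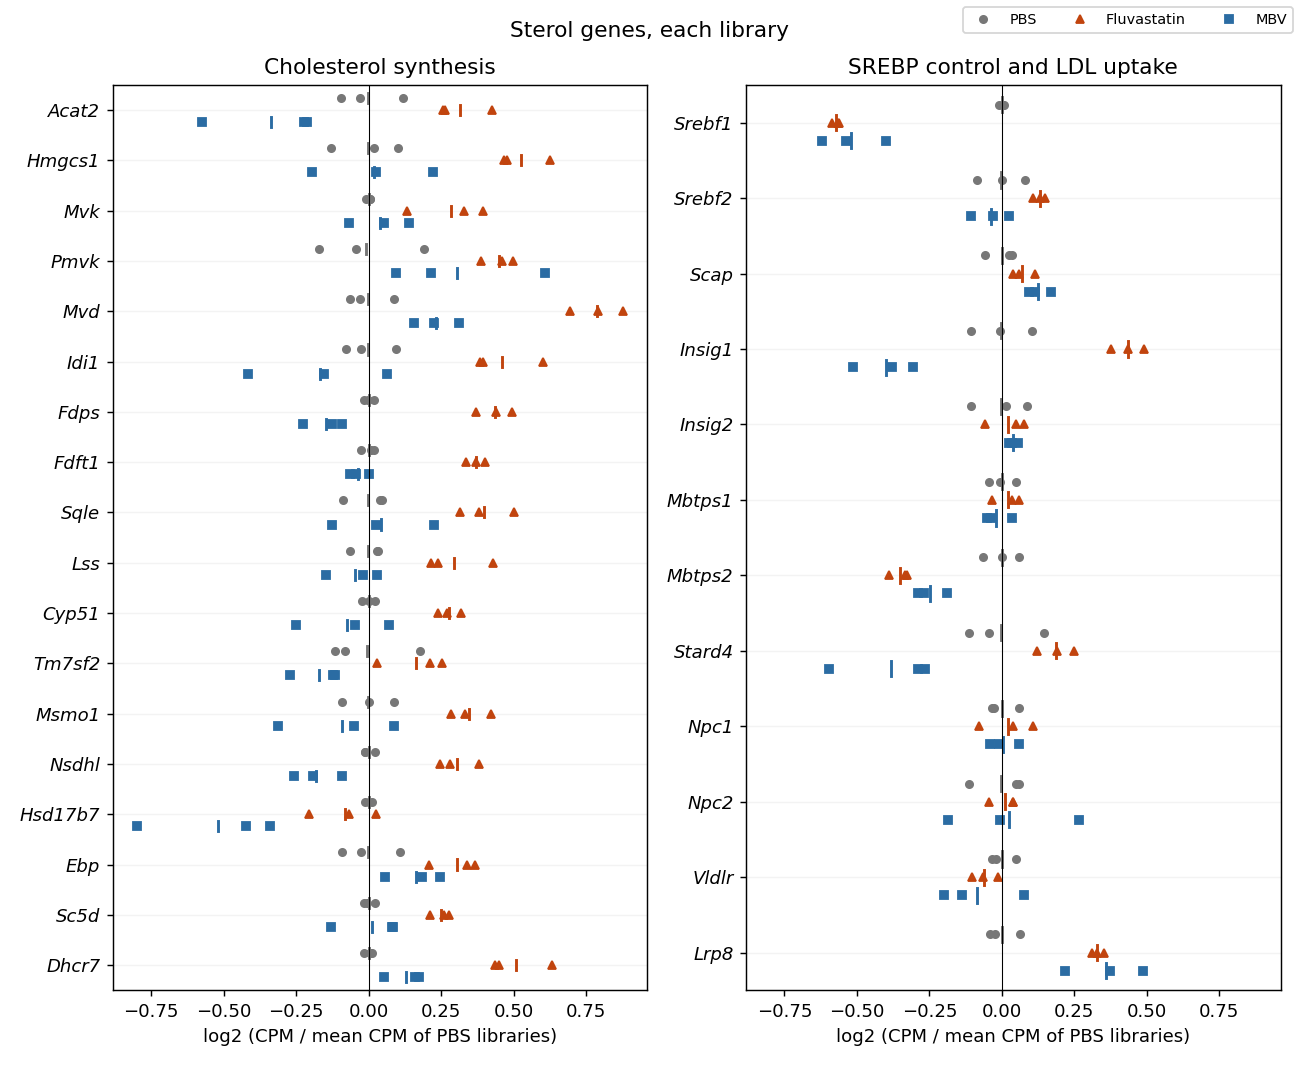
Sterol genes in each library, plotted as the log2 ratio of CPM to the mean CPM of the PBS libraries (x axis) for 18 of the cholesterol synthesis enzymes (left) and 12 genes of SREBP control and LDL uptake (right). Circles are PBS, triangles fluvastatin and squares MBV libraries, and short bars mark the mean of 3 log2 values. For 13 of these 18 enzymes the fluvastatin triangles lie above both other groups, a share not counted over all genes.

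Fluvastatin was next compared with MBV, a comparison inside a single set of library numbers that shares the fluvastatin libraries with the comparison above. At an FDR of 0.05, 4 of 15065 genes (0.0266%) were higher in fluvastatin retinae and 1 (0.00664%) was lower, and 1868 genes had an unadjusted p under 0.05. Of the 4 higher genes, Insig1, Fdps and Fdft1 belong to the sterol lists described above. Insig1 was at 108, 113 and 117 CPM in fluvastatin and 64.1, 67.4 and 58.4 CPM in MBV retinae (log2 fold change 0.83 ± 0.061, FDR 0.00979). Fdps was at 23.002, 22.45 and 20.98 CPM (log2 fold change 0.58 ± 0.064, FDR 0.0471) in MBV retinae. Fdft1 was at 57.8, 59.7 and 57.1 CPM (log2 fold change 0.41 ± 0.045, FDR 0.0471). For these 3 genes each fluvastatin library exceeded every MBV library.

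The whole cholesterol synthesis list lay above 0 against MBV, with 20 of 20 log2 fold changes positive and a median of 0.38. Of its members 18 had an unadjusted p under 0.05 in the higher direction, compared with 5.81% of all genes, and 17 had all fluvastatin libraries above all MBV libraries, compared with 9.13% of all genes. Acat2 was at 17.3, 17.4 and 13.52 CPM in MBV retinae (log2 fold change 0.64 ± 0.11, FDR 0.141). Stard4, at 27.8, 27.3 and 22.1 CPM in MBV retinae, also did not pass the FDR (log2 fold change 0.56 ± 0.091, FDR 0.141). Against PBS the log2 fold changes of Acat2, Stard4 and Hsd17b7 were smaller, at 0.32, 0.19 and -0.080, and Hsd17b7 was at 0.43 against MBV. For these genes the MBV level was thus below that of PBS. The summed CPM of the cholesterol synthesis list was 951, 914 and 972 in PBS and 935, 991 and 839 in MBV retinae. For 15 of the members every fluvastatin library lay above every PBS and every MBV library. The share of all genes above both groups was not counted. Under the alternatives the number of members at an unadjusted p under 0.05 stayed between 16 and 18, while the number past the FDR ran from 0 to 13, the latter with DESeq2.

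The gene lower against MBV was Usp2, a ubiquitin-specific protease with a daily rhythm of expression in many tissues, at 147, 130.1 and 125 CPM in fluvastatin, 225, 212 and 253 CPM in MBV and 132, 132 and 124 CPM in PBS retinae (log2 fold change -0.78 ± 0.083, FDR 0.0471 against MBV). Its fluvastatin and PBS values overlapped, and the MBV values stood above both. The count of genes past the FDR against MBV was 0 without fluvastatin replicate 3, 0 without MBV replicate 1, 1 without fluvastatin replicate 2 and 23 without MBV replicate 3. Summed CPM of lens crystallins and fibre genes, which mark lens tissue, was 31.8, 24.47 and 25.96 in PBS, 26.6, 52.4 and 24.46 in fluvastatin and 318, 117 and 113 in MBV retinae. The part of this difference in other genes was not tested.

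Genes of cholesterol efflux and LXR, the receptor for oxysterols, gave 2 higher and 5 lower of 16, with a median of -0.15. Of all genes 12.2% were higher, near the share of this list, and 12.7% were lower. Abca1, the pump that loads cholesterol onto apolipoproteins (chr4:53030787-53159895), was at 119, 120.4 and 111 CPM in PBS, 56.54, 73.03 and 68.2 CPM in fluvastatin and 88.7, 83.2 and 86.4 CPM in MBV retinae. Against PBS it was 1.77-fold lower (log2 fold change -0.83 ± 0.088, FDR 0.00156), and the fluvastatin libraries lay below all libraries of both other groups. Scd1, which desaturates fatty acids and responds to both LXR and SREBP, was at 17.4, 15.7 and 18.6 CPM in PBS, 23.9, 33.04 and 29.4 CPM in fluvastatin and 16.9, 18.9 and 15.3 CPM in MBV retinae, 1.67-fold higher than in PBS (log2 fold change 0.74 ± 0.12, FDR 0.00413). For Scd1 the fluvastatin libraries lay above both other groups, though its log2 fold change against MBV, 0.76 ± 0.13, did not pass the FDR (0.141). Abcg1, a second cholesterol pump, and Soat1, which esterifies cholesterol, were lower, at log2 fold changes of -0.26 ± 0.054 and -0.22 ± 0.048 (FDR 0.011 and 0.0134). The other lower members were Apoe and Mylip, and the other higher one was Fasn. Without PBS replicate 1, Scd1 and Abca1 were the 2 members past the FDR, and their calls stood in all 13 alternative settings. The lower count was 3 without PBS replicate 2 or fluvastatin replicate 2, and the higher count was 1 without either of these or fluvastatin replicate 3.

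A list of enzymes that make isoprenoid chains, attach them to proteins or process such proteins gave 0 higher and 4 lower of 15, compared with 12.2% higher and 12.7% lower of all genes. None of the 4 is itself a prenyltransferase of proteins, and the transferase subunits Fnta, Fntb, Pggt1b, Rabggta and Rabggtb had FDRs between 0.0704 and 0.749. Chm, a Rab escort protein, changed by -0.27 ± 0.054, Ggps1, which makes geranylgeranyl diphosphate, by -0.14 ± 0.039, Zmpste24, a protease for prenylated proteins, by -0.21 ± 0.059, and Pdss2, for ubiquinone side chains, by -0.28 ± 0.087 (FDR 0.00946, 0.0311, 0.032 and 0.044). Of a list of small GTPases and ROCK kinases, 1 of 14 was higher and 2 were lower, near the share of all genes in each direction. With DESeq2 3 were higher and 1 was lower. Rhoa was at 131, 128 and 133 CPM in PBS and 114, 119 and 120.3 CPM in fluvastatin retinae (log2 fold change -0.15 ± 0.040, FDR 0.0249). Rock1 changed by -0.14 ± 0.042 and Rhoc by 0.37 ± 0.10 (FDR 0.0418 and 0.0313). Rhob, which statins raise in many cultured cells, was at 36.1, 34.49 and 41.7 CPM in PBS and 39.1, 47.1 and 52.6 CPM in fluvastatin retinae and did not pass (log2 fold change 0.30 ± 0.11, FDR 0.0718). The isoprenoid count was 1 without PBS replicate 1 or fluvastatin replicate 2 or 3, and 2 without PBS replicate 2 or 3. The GTPase list had 0 calls without PBS replicate 1 or 2 or fluvastatin replicate 2, 1 lower without fluvastatin replicate 3, and 3 higher without PBS replicate 3 or fluvastatin replicate 1.

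Among endothelial genes known to respond to statins in culture, 1 of 12 was higher and 1 was lower. Over all genes, 12.2% were higher and 12.7% were lower. Plat, tissue plasminogen activator, was at 14.9, 11.9 and 16.4 CPM in PBS and 17.3, 22.2 and 26.2 CPM in fluvastatin retinae (log2 fold change 0.60 ± 0.16, FDR 0.0257). Ccn2, a matricellular growth factor, was at 19.52, 20.4 and 28.9 CPM in PBS and 16.7, 14.6 and 9.89 CPM in fluvastatin retinae (log2 fold change -0.74 ± 0.20, FDR 0.029). Nos3, endothelial nitric oxide synthase, was at 5.77, 5.32 and 4.89 CPM in PBS and 4.95, 6.17 and 4.97 CPM in fluvastatin retinae, with overlapping groups (log2 fold change 0.0091 ± 0.13, FDR 0.968). Klf2 did not pass either (log2 fold change -0.025 ± 0.32, FDR 0.962). Of 16 endothelial and pericyte markers, Mcam was higher (log2 fold change 0.88 ± 0.15, FDR 0.00502) and Flt1, a VEGF receptor, was lower (log2 fold change -0.28 ± 0.053, FDR 0.00727). The calls for Plat and Ccn2 were both lost without fluvastatin replicate 2 or 3, that for Plat also without PBS replicate 1 or 2 and that for Ccn2 without PBS replicate 3. Higher endothelial genes numbered 5 without fluvastatin replicate 1 and 3 without PBS replicate 3. Against MBV no gene of either list passed the FDR. There 2 of the 12 statin-responsive genes and 6 of the 16 markers lay above 0. The log2 fold changes of Plat and Mcam against MBV were -0.30 and -0.17.

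Across all genes 3773 passed the FDR, 1844 higher and 1929 lower, and 3255 of them changed by less than 1.5-fold. Top DEGs, which also changed by at least 2-fold, numbered 62 higher (0.41%) and 122 lower (0.806%). The count of 3773 was 1649 without PBS replicate 1, 2475 without PBS replicate 2 and 2214 without fluvastatin replicate 2. The count of 184 top DEGs was 83 without PBS replicate 1, 104 without fluvastatin replicate 2, 106 without fluvastatin replicate 3 and 319 without fluvastatin replicate 1. The 20 genes described next, 10 in each direction, had the smallest FDR among top DEGs with a mean of at least 100 counts, and all 20 passed the FDR in all 13 alternative settings.

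Of these 10 higher genes, Prss56, a serine protease expressed by Müller glia and tied to eye size, had the largest fold change. It was at 6.29, 10.6 and 8.22 CPM in PBS, 44.49, 121 and 215 CPM in fluvastatin and 208, 296 and 4.46 CPM in MBV retinae (log2 fold change 3.92 ± 0.53, FDR 0.00257). Every fluvastatin library lay above PBS, but fluvastatin replicate 1 was the lowest of its group and MBV replicate 3 lay below the PBS libraries. Adamts19, a secreted metalloprotease, had the lowest value of each group in the same libraries for fluvastatin and MBV, at 1.17, 1.53 and 0.834 CPM in PBS, 5.16, 6.65 and 10.4 CPM in fluvastatin and 13.2, 11.2 and 2.27 CPM in MBV retinae (log2 fold change 2.63 ± 0.31, FDR 0.00177). Nkd1, a feedback inhibitor of Wnt signalling, was at 22.4, 21.51 and 20.7 CPM in PBS and 37.1, 60.6 and 66.96 CPM in fluvastatin retinae (log2 fold change 1.35 ± 0.19, FDR 0.00275). It shares positions with Gm45496 on the same strand.

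Nefh, the heavy neurofilament subunit of large axons, was at 18.3, 17.4 and 22.55 CPM in PBS, 34.3, 44.96 and 42.97 CPM in fluvastatin and 35.7, 38.3 and 38.8 CPM in MBV retinae (log2 fold change 1.07 ± 0.12, FDR 0.00176). Pvalb, a calcium buffer of interneurons and ganglion cells, was at 2.63, 1.94 and 2.84 CPM in PBS and 3.92, 5.83 and 6.88 CPM in fluvastatin retinae (log2 fold change 1.17 ± 0.23, FDR 0.00869). Pde10a, a cyclic nucleotide phosphodiesterase, was at 40.3, 36.8 and 43.3 CPM in PBS, 96.8, 79.3 and 75.497 CPM in fluvastatin and 62.53, 58.6 and 67.3 CPM in MBV retinae (log2 fold change 1.06 ± 0.097, FDR 0.00105), the fluvastatin libraries being above both other groups. Myrf, a membrane-bound transcription factor, Cdh3, P-cadherin of epithelia, and Tmem26 were higher by 1.15 ± 0.21, 1.17 ± 0.16 and 1.41 ± 0.15 on the log2 scale (FDR 0.00689, 0.00264 and 0.0015). Hbb-bs, a beta globin, was at 3.34, 3.14 and 2.80 CPM in PBS and 6.11, 6.28 and 8.11 CPM in fluvastatin retinae (log2 fold change 1.14 ± 0.15, FDR 0.0024). Reads of near-identical globin copies may be divided among them.

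Among the genes that fell, Pmel, Dct and Tyr are pigment genes and are described with their list. Col4a3, a basement membrane collagen of Bruch's membrane and other sites (chr1:82564642-82699780), was at 43.55, 42.7 and 32.6 CPM in PBS, 11.51, 13.1 and 13.7 CPM in fluvastatin and 7.86, 6.997 and 10.04 CPM in MBV retinae, 3.11-fold lower than in PBS (log2 fold change -1.64 ± 0.12, FDR 0.000664). Hdc, which makes histamine, was at 21.1, 21.9 and 17.96 CPM in PBS, 7.84, 5.12 and 4.76 CPM in fluvastatin and 2.96, 1.69 and 4.98 CPM in MBV retinae (log2 fold change -1.79 ± 0.17, FDR 0.00134). Glb1l3, a galactosidase-like gene, was at 15.1, 15.7 and 11.6 CPM in PBS, 5.49, 4.75 and 4.37 CPM in fluvastatin and 2.01, 1.46 and 2.92 CPM in MBV retinae (log2 fold change -1.54 ± 0.14, FDR 0.00114). Its fluvastatin libraries lay between the other groups without overlap. Isyna1, which makes inositol phosphate, Ly75, an endocytic receptor, and Gng11, a G protein subunit, were lower, at log2 fold changes of -1.09 ± 0.090, -1.12 ± 0.12 and -1.09 ± 0.13 (FDR 0.000838, 0.00175 and 0.00177). Gm20721 was lower, at a log2 fold change of -1.23 ± 0.11 (FDR 0.000901). It lies opposite Gnas, whose reads it may hold.

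**Figure D2:**
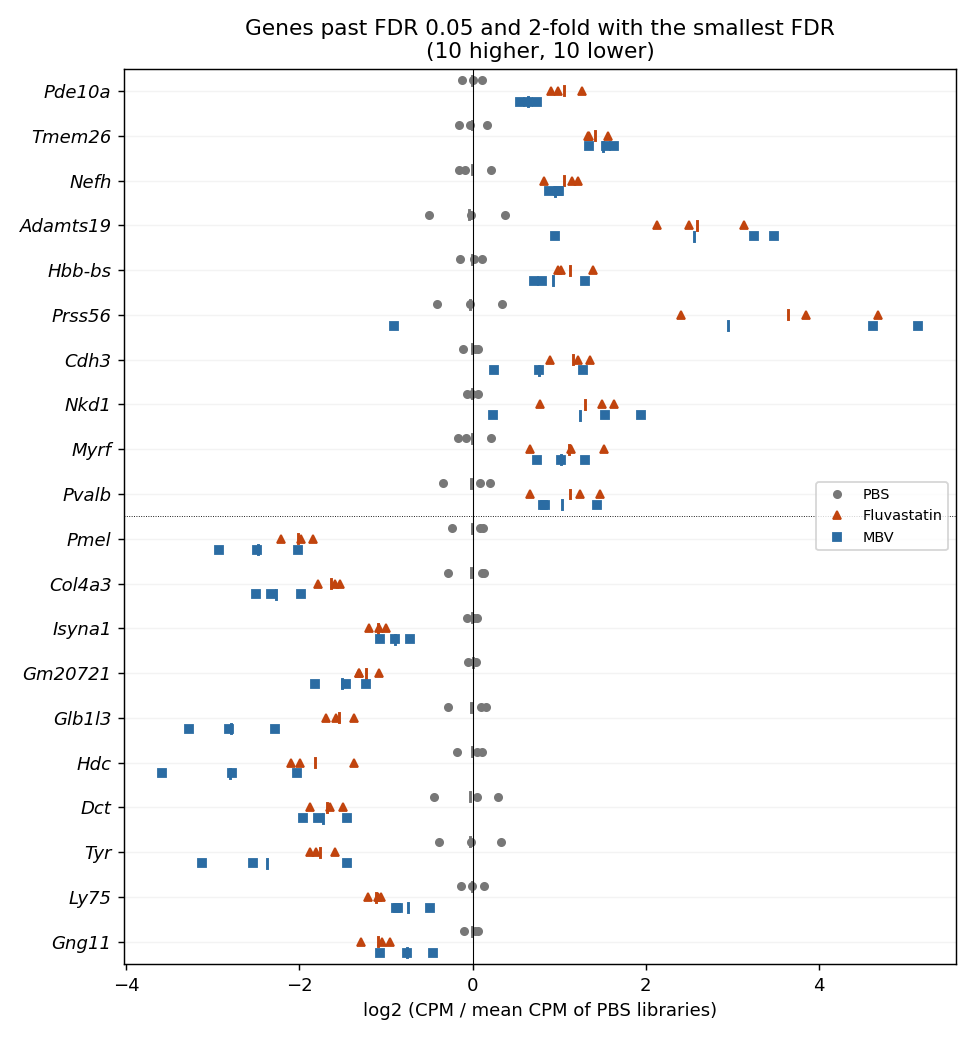
The 20 top DEGs with the smallest FDR in each library, plotted as the log2 ratio of CPM to the mean CPM of the PBS libraries (x axis), 10 higher genes above the dotted line and 10 lower genes under it. Circles are PBS, triangles fluvastatin and squares MBV libraries, and short bars mark the mean of 3 log2 values; for Prss56 the fluvastatin libraries run from 44.5 to 215 CPM and 1 MBV library lies below PBS.

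Of abundant genes, with a mean of at least 1000 counts, the 5 with the smallest FDR in each direction changed less than 2-fold. Nectin1, an adhesion molecule, was at 181, 188 and 188 CPM in PBS, 276, 278 and 276 CPM in fluvastatin and 281, 307 and 308 CPM in MBV retinae (log2 fold change 0.57 ± 0.036, FDR 0.000355). Ctif, a translation factor, and Gapdh, of glycolysis, were higher by 0.46 ± 0.037 and 0.56 ± 0.046 (FDR 0.000838 and 0.000838). Cdr1 was higher by 0.86 ± 0.061 (FDR 0.000608). Because its locus is known to give an antisense circular RNA and strand of counting is not stated, the transcript counted is uncertain. Tfrc, the transferrin receptor for iron uptake, was at 201, 201 and 201 CPM in PBS, 128, 117 and 114 CPM in fluvastatin and 116, 103 and 115 CPM in MBV retinae (log2 fold change -0.75 ± 0.048, FDR 0.000355). Sgk1, a kinase induced by corticosteroids, was at 266, 282 and 275 CPM in PBS, 168, 165 and 151 CPM in fluvastatin and 143, 124 and 182 CPM in MBV retinae (log2 fold change -0.77 ± 0.050, FDR 0.000355). Trpc1, a cation channel, and Foxn2, a forkhead factor, were lower, at log2 fold changes of -0.69 ± 0.043 and -0.64 ± 0.049 (FDR 0.000355 and 0.000664). For these lower genes the MBV libraries were likewise below PBS.

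Melanin synthesis gave 0 higher and 7 lower of 12 tested genes, with a median log2 fold change of -1.42 against PBS and 0.12 against MBV. Against PBS 12.2% of all genes were higher and 12.7% were lower. In whole retina, fewer pigmented cells and less RNA per cell cannot be told apart. The upstream 250 bases of 3 of these genes, which include 2 of the named top DEGs, are printed with the M-box TCATGTG, a site of the melanocyte factor MITF, in capitals on either strand.
Tyr: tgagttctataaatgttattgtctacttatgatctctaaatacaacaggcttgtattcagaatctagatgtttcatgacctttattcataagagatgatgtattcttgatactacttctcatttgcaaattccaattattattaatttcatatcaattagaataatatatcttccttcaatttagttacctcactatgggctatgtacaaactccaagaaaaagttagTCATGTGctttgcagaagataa
Tyrp1: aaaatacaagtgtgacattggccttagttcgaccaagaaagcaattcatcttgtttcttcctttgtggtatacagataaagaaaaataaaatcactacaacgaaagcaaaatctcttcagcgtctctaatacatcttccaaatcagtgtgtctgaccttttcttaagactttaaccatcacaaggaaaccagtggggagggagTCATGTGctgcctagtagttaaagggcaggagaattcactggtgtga
Dct: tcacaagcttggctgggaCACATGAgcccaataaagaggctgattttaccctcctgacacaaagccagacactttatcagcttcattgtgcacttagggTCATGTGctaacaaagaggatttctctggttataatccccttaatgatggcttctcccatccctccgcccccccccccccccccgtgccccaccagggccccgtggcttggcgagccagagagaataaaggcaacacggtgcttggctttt
These lie at chr7:87142721-87142970 (minus strand), chr4:80752200-80752449 (plus strand) and chr14:118289659-118289908 (minus strand) in GRCm39. The M-box was in 4 of the 8 melanin genes with an entry, namely Dct, Slc24a5, Tyr and Tyrp1, on either strand, compared with 3.72% of all 27025 genes.

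Pmel, which forms the fibrils of melanosomes, was at 20.7, 16.3 and 20.4 CPM in PBS, 5.32, 4.86 and 4.12 CPM in fluvastatin and 3.40, 2.52 and 4.72 CPM in MBV retinae, 4.01-fold lower than in PBS (log2 fold change -2.0 ± 0.13, FDR 0.000355). Pmel lies at chr10:128540064-128556107 opposite Cdk2 and Dgka, whose reads may be counted with it if strand was not used. Tyr, tyrosinase, was at 9.83, 7.60 and 12.51 CPM in PBS and 2.72, 2.84 and 3.31 CPM in fluvastatin retinae (log2 fold change -1.75 ± 0.19, FDR 0.00167). Dct, dopachrome tautomerase, was at 62.2, 44.3 and 73.8 CPM in PBS and 21.2, 16.3 and 19.2 CPM in fluvastatin retinae (log2 fold change -1.67 ± 0.17, FDR 0.00152). Gpnmb, a melanosome glycoprotein also made by macrophages, fell by 2.44-fold (log2 fold change -1.29 ± 0.15, FDR 0.0018). Fluvastatin and PBS libraries did not overlap for these 4 genes, while fluvastatin and MBV libraries did. Mitf was at 14.8, 11.998 and 12.1 CPM in PBS and 12.2, 12.97 and 12.1 CPM in fluvastatin retinae and did not pass (log2 fold change -0.063 ± 0.098, FDR 0.672).

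Pigment epithelium genes of the visual cycle and of transport were in contrast higher, with 5 of 8 past the FDR, none lower and a median of 0.91. The shares of all genes were 12.2% higher and 12.7% lower. Ttr, a retinol carrier, was at 20.4, 24.4 and 17.9 CPM in PBS, 26.45, 59.1 and 54.3 CPM in fluvastatin and 24.501, 40.3 and 51.4 CPM in MBV retinae (log2 fold change 1.16 ± 0.26, FDR 0.0152). Stra6, a retinol transporter, was at 5.999, 5.69 and 6.03 CPM in PBS and 7.55, 14.3 and 11.8 CPM in fluvastatin retinae (log2 fold change 0.93 ± 0.21, FDR 0.0134). Slc16a8, a lactate carrier, and Rgr, a retinal-binding opsin, were higher by 1.18 ± 0.27 and 1.05 ± 0.25 (FDR 0.0156 and 0.0164), as was Rdh5, a retinol dehydrogenase. Rpe65, the isomerase of the cycle, did not pass (log2 fold change 0.51 ± 0.22, FDR 0.126). In all 5 higher genes fluvastatin replicate 1 was the lowest of its group, and the count of higher genes was 0 without PBS replicate 1 and 1 without fluvastatin replicate 2 or 3. Against MBV neither list, melanin synthesis or pigment epithelium, had a gene past the FDR.

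The counts of the next 2 lists are read against the 12.2% higher and 12.7% lower of all genes. Of 19 basement membrane genes 4 were higher and 2, Col4a3 among them, were lower. Col4a1 and Col4a2, which form the collagen IV of vessels and share a promoter region, changed by 0.63 ± 0.075 and 0.60 ± 0.066, and Agrn, agrin, by 0.40 ± 0.072 (FDR 0.00183, 0.00175 and 0.0064), with Nid1 also higher and Col4a4 also lower. Of 14 fibroblast and fibrillar collagen genes 3 were higher and 3 were lower. Col6a1, of microfibrillar collagen, was at 27.9, 32.2 and 27.1 CPM in PBS and 46.7, 55.3 and 53.54 CPM in fluvastatin retinae (log2 fold change 0.83 ± 0.087, FDR 0.00152). Col3a1 and Col6a2 were also higher and Col1a1 lower. Dcn, decorin, and Lum, lumican, small proteoglycans of connective tissue, were lower with few counts, Lum having 14, 16 and 20 counts in PBS and 1, 4 and 2 counts in fluvastatin retinae (FDR 0.00687 and 0.00695). The fibroblast counts were 1 higher and 1 lower without PBS replicate 1, 2 higher and 1 lower without PBS replicate 2, and 3 higher and 5 lower without fluvastatin replicate 1. Lower basement membrane genes numbered 7 without fluvastatin replicate 1 and 1 without PBS replicate 1 or fluvastatin replicate 3. Against MBV no gene of either list passed the FDR, and 7 of 19 basement membrane and 4 of 13 fibroblast genes lay above 0. Log2 fold changes against MBV were -0.36 for Col4a1, -0.24 for Col4a2, -0.13 for Agrn and -0.22 for Col6a1.

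Müller glia markers gave 0 higher and 7 lower of 11, with a median of -0.52 against PBS and -0.011 against MBV. Against PBS 12.2% of all genes were higher and 12.7% were lower. Dkk3, a secreted Wnt modulator, was at 772, 731 and 808 CPM in PBS, 608, 485 and 473 CPM in fluvastatin and 544, 438 and 604 CPM in MBV retinae (log2 fold change -0.56 ± 0.090, FDR 0.00426). Rlbp1, which carries retinaldehyde, was at 215, 224 and 214 CPM in PBS and 173, 184 and 179 CPM in fluvastatin retinae (log2 fold change -0.28 ± 0.042, FDR 0.00321). Hes1, a Notch effector, and Car14, a carbonic anhydrase, changed by -0.66 ± 0.071 and -0.80 ± 0.14 (FDR 0.00162 and 0.00568). Glul, glutamine synthetase, was at 2586, 2487 and 1909.7 CPM in PBS and 2000.3, 1058 and 820.4 CPM in fluvastatin retinae, with fluvastatin replicate 1 inside the PBS range, and did not pass (log2 fold change -0.85 ± 0.29, FDR 0.0591).

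Genes of reactive glia gave 1 higher of 17, compared with 12.2% of all genes. Nes, nestin, was at 10.7, 7.499 and 12.96 CPM in PBS, 17.8, 50.01 and 69.04 CPM in fluvastatin and 52.9, 76.3 and 17.4 CPM in MBV retinae (log2 fold change 2.14 ± 0.43, FDR 0.0093). Gfap, the classic marker of retinal gliosis, was at 29.9, 36.9 and 68.7 CPM in PBS and 63.3, 69.6 and 103 CPM in fluvastatin retinae, where PBS replicate 3 lay inside the fluvastatin range (log2 fold change 0.80 ± 0.29, FDR 0.0759). Gfap passed without PBS replicate 3, with 6 of the 17 genes then higher, and without fluvastatin replicate 1, with 3 higher.

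Retinal ganglion cell (RGC) markers gave 6 higher and 0 lower of 17, with a median of 0.29. The shares of all genes were 12.2% higher and 12.7% lower. Besides Nefh, Sncg, gamma-synuclein, was at 25.6, 20.7 and 25.2 CPM in PBS, 29.3, 40.3 and 36.9 CPM in fluvastatin and 24.501, 26.6 and 30.3 CPM in MBV retinae (log2 fold change 0.58 ± 0.12, FDR 0.0115). Thy1, a surface protein used to mark RGCs, and Tubb3, a neuronal tubulin, were higher by 0.44 ± 0.10 and 0.45 ± 0.11 (FDR 0.0164 and 0.0214). Rbpms, which marks nearly all RGCs, was at 19.6, 17.45 and 19.02 CPM in PBS and 18.7, 25.53 and 22.4 CPM in fluvastatin retinae, with overlap, and did not pass (log2 fold change 0.25 ± 0.11, FDR 0.13). The count was 12 without fluvastatin replicate 1 and 2 without any 1 of PBS replicate 1, PBS replicate 2, fluvastatin replicate 2 and fluvastatin replicate 3. Against MBV the median was 0.19, and 0 of the 17 passed the FDR.

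Axon injury and regeneration genes gave 5 higher and 0 lower of 20, compared with 12.2% higher and 12.7% lower of all genes. Map3k12, the DLK kinase that senses axon damage, was at 87.4, 92.9 and 90.7 CPM in PBS, 118, 112 and 112 CPM in fluvastatin and 119, 117 and 125 CPM in MBV retinae (log2 fold change 0.33 ± 0.044, FDR 0.0024). Hrk, a BH3-only death gene, was at 13.04, 13.2 and 12.8 CPM in PBS and 21.2, 26.8 and 17.2 CPM in fluvastatin retinae (log2 fold change 0.74 ± 0.14, FDR 0.00788). Klf7 and Klf6, factors that favour axon growth, changed by 0.22 ± 0.066 and 0.36 ± 0.11 (FDR 0.0452 and 0.0467), the fifth being Lif, a cytokine. Atf3, Jun, Sox11, Gap43 and Sprr1a, which rise in RGCs after crush, did not pass, with log2 fold changes of 0.21 ± 0.20, 0.17 ± 0.13, 0.11 ± 0.15, 0.16 ± 0.079 and -0.19 ± 0.24. The count was 12 without PBS replicate 3, 3 without fluvastatin replicate 2, 2 without PBS replicate 1, PBS replicate 2 or fluvastatin replicate 3, and 2 with library totals in place of TMM. The median log2 fold change was 0.28 against PBS and -0.020 against MBV, where 0 of the 20 passed the FDR.

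Lists of other retinal neurons are read against the 12.2% higher and 12.7% lower of all genes. Photoreceptor genes gave 5 higher and 2 lower of 33, bipolar cell markers 1 higher and 3 lower of 15, and amacrine and horizontal cell markers 3 higher and 0 lower of 15. Rcvrn, recoverin of photoreceptors, was at 567, 596 and 545 CPM in PBS and 862, 818 and 763 CPM in fluvastatin retinae (log2 fold change 0.51 ± 0.057, FDR 0.00175). Nr2e3, a rod factor, changed by 0.57 ± 0.095 and Cnga3, the cone channel, by 0.59 ± 0.060 (FDR 0.00486 and 0.0015). Slc6a9, the glycine transporter of amacrine cells, changed by 0.18 ± 0.046 (FDR 0.0217). Other calls were Gngt1 and Gngt2 higher and Gnb1 and Sag lower among photoreceptor genes, Lrit3 higher and Vsx1 and Scgn lower among bipolar genes, and Tfap2a and Slc18a3 higher among amacrine genes. Lower photoreceptor genes numbered 7 with DESeq2, 5 with library totals alone, 0 without PBS replicate 1 or 2, 4 without PBS replicate 3, 1 without fluvastatin replicate 2 or 3 and 8 without fluvastatin replicate 1. Lower bipolar genes numbered 0 without PBS replicate 1 or 2 or fluvastatin replicate 2 or 3, 7 without PBS replicate 3 and 5 without fluvastatin replicate 1. The amacrine count was 0 without PBS replicate 1 or 2 or fluvastatin replicate 2, 1 without fluvastatin replicate 3 and 7 without fluvastatin replicate 1.

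**Figure D3:**
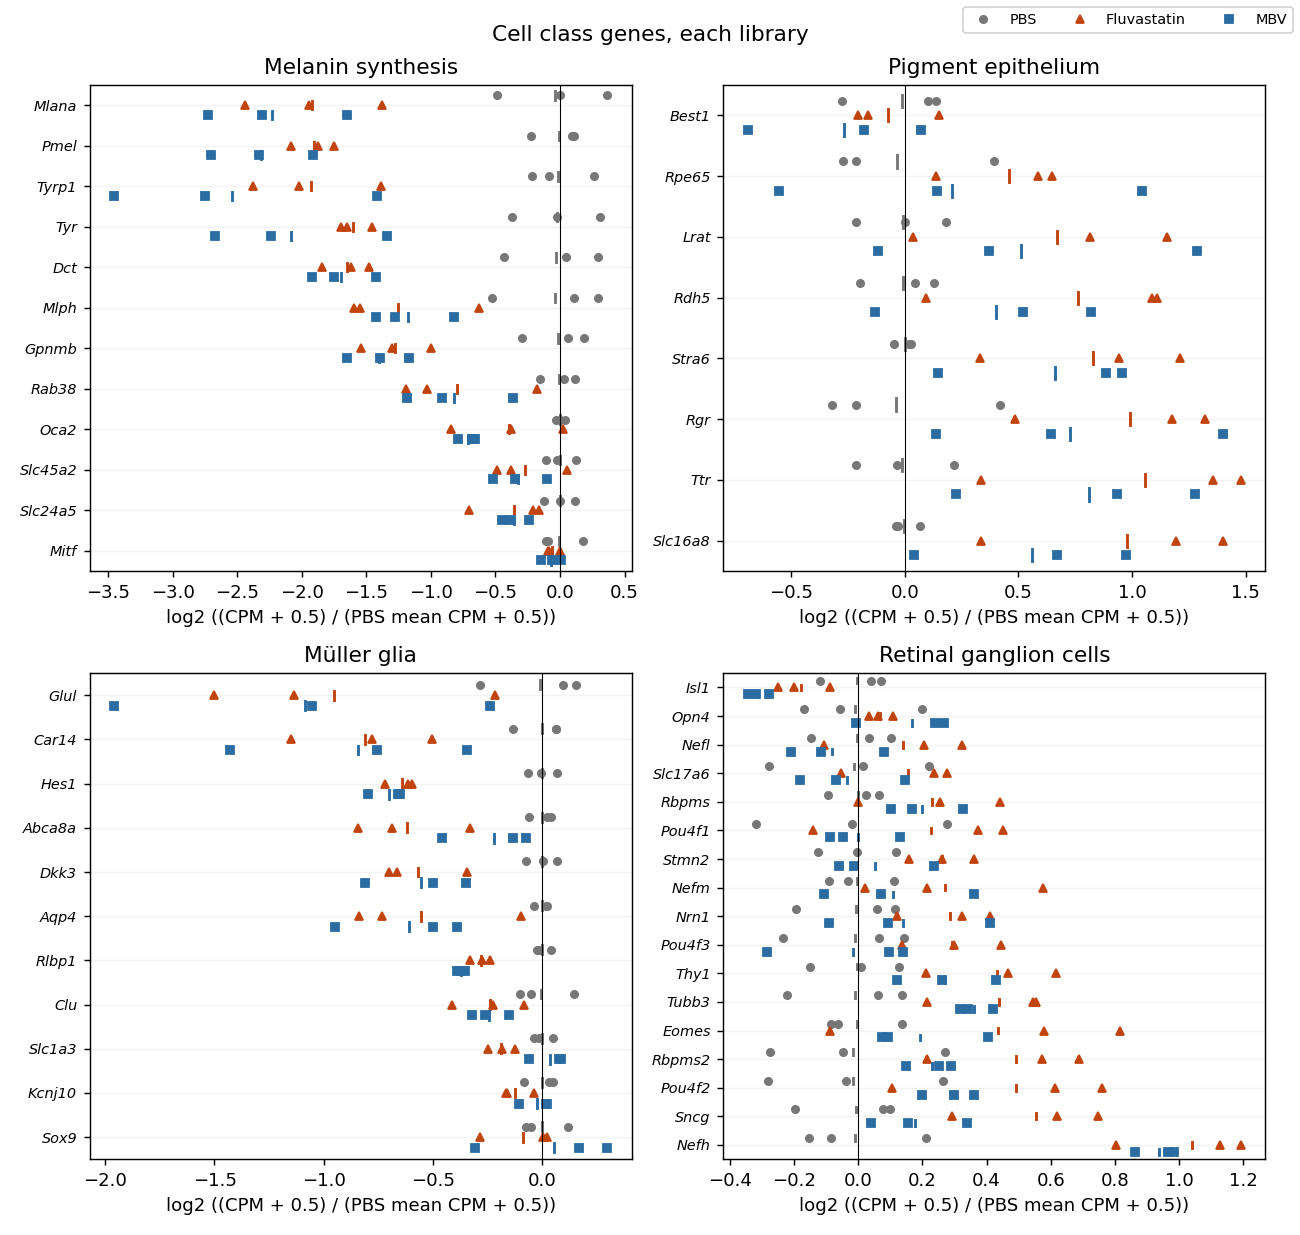
Genes of 4 cell classes in each library, plotted as the log2 ratio of CPM to the PBS mean with 0.5 CPM added to both (x axis). Circles are PBS, triangles fluvastatin and squares MBV libraries, and short bars mark the mean of 3 log2 values; fluvastatin and MBV libraries overlap for each melanin and pigment epithelium gene, for instance Pmel at 4.12 to 5.32 CPM in fluvastatin and 2.52 to 4.72 CPM in MBV retinae.

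Of the immune lists, microglia markers gave 0 higher and 2 lower of 14, near the share of all genes that were lower (12.7%), with Gpr34, a microglial receptor, changing by -0.56 ± 0.17 (FDR 0.0477). Of 11 monocyte and 14 neutrophil markers, 5 and 3 had enough counts to be tested. Lyz2, a myeloid lysozyme, was at 6.29, 6.31 and 15.04 CPM in PBS, 3.38, 4.97 and 2.68 CPM in fluvastatin and 6.07, 3.20 and 56.1 CPM in MBV retinae (log2 fold change -1.31 ± 0.37, FDR 0.0339). Mmp9, a gelatinase, changed by 0.54 ± 0.16 (FDR 0.0417). Ccr2, the CCL2 receptor of monocytes, did not pass (log2 fold change -0.094 ± 0.58, FDR 0.92). The summed CPM of monocyte markers was 10.3, 9.48 and 22.3 in PBS and 7.35, 8.63 and 5.90 in fluvastatin retinae. The lower microglia count was 0 with any single library left out other than fluvastatin replicate 3. The calls of Gpr34, Lyz2 and Mmp9 were each lost without fluvastatin replicate 2 and without at least 3 other libraries in turn.

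Of 7 chemokine genes tested, Cx3cl1, the neuronal fractalkine, was at 82.7, 76.8 and 86.2 CPM in PBS and 102, 109 and 105 CPM in fluvastatin retinae (log2 fold change 0.37 ± 0.052, FDR 0.00298). Cxcl10, induced by interferon, was at 0.195, 0.273 and 0.568 CPM in PBS and 3.47, 0.262 and 3.14 CPM in fluvastatin retinae, with fluvastatin replicate 2 inside the PBS range (log2 fold change 2.73 ± 0.81, FDR 0.0399). Cxcl16 was lower (log2 fold change -0.29 ± 0.074, FDR 0.0241). Ccl2, the monocyte chemokine, was under the count minimum, with 9, 1 and 5 counts in PBS and 14, 1 and 33 counts in fluvastatin retinae, and the groups overlapped. Without a filter on low counts its edgeR log2 fold change was 1.90 ± 0.92 (FDR 0.182), and with the filter of the study methods it was 1.89 ± 0.96 (FDR 0.18). Against MBV it did not pass (log2 fold change -0.42 ± 0.73, FDR 0.841). Interferon response genes gave 0 higher and 0 lower of 18 with edgeR, 0 at an unadjusted p under 0.05 and 0 with DESeq2, though 2 were higher without PBS replicate 3 and 2 lower without fluvastatin replicate 1. Complement gave 1 lower of 16, compared with 12.7% of all genes, namely C2 (log2 fold change -0.85 ± 0.18, FDR 0.0111). Antigen presentation gave 1 lower of 13, H2-Aa of MHC class II (log2 fold change -1.34 ± 0.32, FDR 0.0177). Both calls were lost without PBS replicate 1. Without fluvastatin replicate 1, 5 complement and 3 antigen presentation genes were lower. The call of Cxcl10 was lost without PBS replicate 1 or 2.

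Of 14 heat shock proteins, which fold and refold other proteins, 5 were higher and 0 lower, with a median of 0.19. This count and that of the integrated stress response are read against 12.2% higher and 12.7% lower of all genes. Hspa8, the constitutive chaperone, was at 844, 788 and 804 CPM in PBS and 1118, 979 and 1024 CPM in fluvastatin retinae (log2 fold change 0.36 ± 0.057, FDR 0.00423). Hsp90b1, the HSP90 of the endoplasmic reticulum, was at 351, 340.3 and 327 CPM in PBS and 468, 418 and 463 CPM in fluvastatin retinae (log2 fold change 0.40 ± 0.052, FDR 0.00224). Hsph1 and Dnajb1, co-chaperones, changed by 0.42 ± 0.053 and 0.21 ± 0.056 (FDR 0.00201 and 0.0289), and Hspa5 was the other higher gene. The integrated stress response, by which cells slow translation under amino acid or folding stress, gave 5 higher and 1 lower of 14. Atf4, its central factor, was at 179, 178 and 186 CPM in PBS, 211, 217 and 213 CPM in fluvastatin and 248, 246 and 211 CPM in MBV retinae (log2 fold change 0.24 ± 0.037, FDR 0.00385). Atf5, Aars and Nars were higher by 0.96 ± 0.18, 0.32 ± 0.051 and 0.21 ± 0.039 (FDR 0.00681, 0.00407 and 0.00748), with Ppp1r15a also higher and Slc7a11, a cystine carrier, lower. The heat shock count was 3 without PBS replicate 1, PBS replicate 2 or fluvastatin replicate 3. Against MBV the heat shock median was 0.080, with 12 of 14 genes above 0. The integrated stress response median there was -0.14, with 5 of 14 above 0. In neither list did a gene pass the FDR against MBV.

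Nuclear genes for oxidative phosphorylation, the subunits of the respiratory chain, gave 5 higher and 31 lower of 79, with a median of -0.15 against PBS and 0.13 against MBV, where 73 of the 79 lay above 0. Atp5g3, of ATP synthase, was at 88.3, 85.1 and 89.1 CPM in PBS, 68.8, 64.4 and 61.48 CPM in fluvastatin and 57.6, 56.1 and 62.3 CPM in MBV retinae (log2 fold change -0.43 ± 0.051, FDR 0.0018). Ndufb5 of complex I and Sdhd of complex II were lower, at log2 fold changes of -0.37 ± 0.045 and -0.35 ± 0.055, and Cox6b1 of complex IV was higher by 0.30 ± 0.049 (FDR 0.00201, 0.00415 and 0.0046). Mitochondrial genome genes gave 4 higher, mt-Atp8, mt-Nd4l, mt-Nd5 and mt-Nd6, and 2 lower, mt-Co3 and mt-Nd3, of 13, with 7 higher without fluvastatin replicate 3. Cytosolic ribosomal proteins gave 16 higher and 3 lower of 80, compared with 12.2% higher and 12.7% lower of all genes. Rpl21 and Rpl11 were higher by 0.41 ± 0.051 and 0.37 ± 0.058, and Rpl27 was lower, at a log2 fold change of -0.43 ± 0.067 (FDR 0.00201, 0.00407 and 0.00407). Reads of ribosomal protein genes may be shared with their many processed copies. The count of lower respiratory genes was 13 without PBS replicate 1, 19 without PBS replicate 3 and 20 without fluvastatin replicate 2. The count of higher ribosomal genes was 9 without PBS replicate 1 or 2, 10 without fluvastatin replicate 2 and 33 without fluvastatin replicate 1.

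The remaining lists are also read against the 12.2% higher and 12.7% lower of all genes. Immediate early genes gave 2 higher of 14, Npas4, an activity-driven factor (log2 fold change 0.57 ± 0.15, FDR 0.0233), and Fosl2, of AP-1 (log2 fold change 0.56 ± 0.18, FDR 0.0475). The list had 0 genes past the FDR without PBS replicate 1 or 2 or fluvastatin replicate 2 or 3 and 5 higher without PBS replicate 3. Cell cycle genes gave 1 lower of 15, Pcna, the replication clamp (log2 fold change -0.23 ± 0.042, FDR 0.00622). Histones gave 1 higher and 3 lower of 14, with H2az1 and H3f3a at -0.42 ± 0.057 and -0.39 ± 0.071 (FDR 0.00266 and 0.00628), the others being H3f3b lower and H1f3 higher. Erythroid genes gave 3 higher of 5, Hbb-bs, Hbb-bt and Hba-a2, with a median log2 fold change of 1.14 and all 5 above 0, and 2 to 4 were higher with a library left out. The summed CPM of the 5, markers of blood in the tissue, was 8.24, 7.67 and 6.48 in PBS, 13.4, 16.8 and 17.03 in fluvastatin and 13.97, 14.8 and 17.2 in MBV retinae. The part of blood in other results was not tested. Of the lens list 1 of 9 was lower, Bfsp2 (log2 fold change -1.11 ± 0.24, FDR 0.013). The lens list as a whole leaned the other way, with 7 of the 9 above 0 and a median of 0.89, none past the FDR as higher. Of 4 keratins 1 was higher, Krt18 (log2 fold change 0.30 ± 0.062, FDR 0.0108), whose call was lost without PBS replicate 1. The other 3 keratins lay below 0 without passing the FDR, and the median of the 4 was -0.60. Of 3 skeletal muscle genes 0 passed with edgeR or DESeq2 and 0 had an unadjusted p under 0.05.

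**Figure D4:**
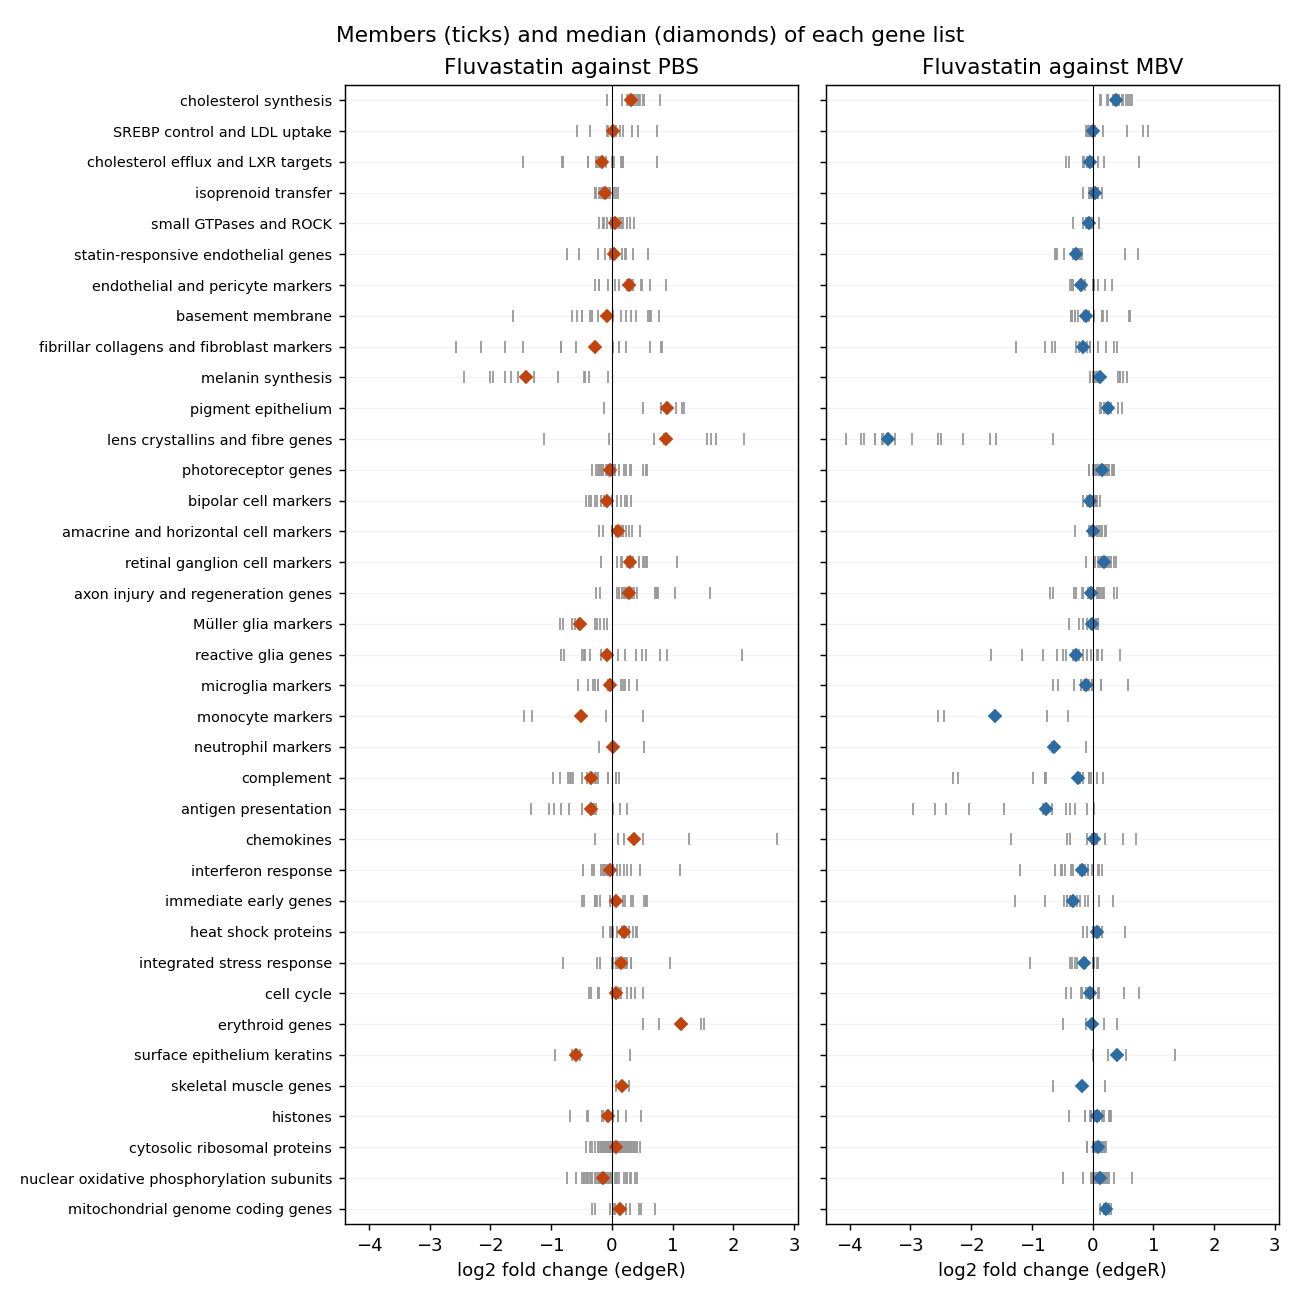
Log2 fold changes of the members of each gene list (ticks) with the list's median (diamonds), for fluvastatin against PBS (left) and against MBV (right) on a shared x axis. Both panels use the same fluvastatin libraries; the median of cholesterol synthesis is 0.32 on the left and 0.38 on the right, while that of melanin synthesis is -1.42 on the left and 0.12 on the right.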

How the data were processed

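Total RNA libraries were sequenced by the authors, aligned to GRCm39 and counted per gene in CLC Genomics Workbench, and the deposited values used here are raw counts per gene. Strand and other counting options are not given in the sources used here. Samples were grouped by their treatment label. The 6 columns of per-sample values without a library name, and columns with the comparisons of the authors (fold changes and p-values), were not used. Genes that reached 10 counts in any 3 of the 6 libraries entered edgeR 4.0.16 in R 4.3.3 (TMM scaling, quasi-likelihood test, group as the only term, two-sided, Benjamini-Hochberg adjusted p, called FDR, threshold 0.05), first tested on simulated data. Intervals given with ± are SE, computed as the absolute log2 fold change divided by the square root of the F statistic of the test. Fluvastatin and MBV libraries were fitted likewise, from tables of raw counts. Alternatives were DESeq2 1.42.0, other scalings and filters, the replicate number as a block, 1 fit of 9 libraries, another fold threshold and each library left out.

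The study prepared each group in triplicate and speaks of biological replicates, but the animals behind each library are not stated, so the p-values measure the spread between these samples. The members of the lists and the tests were chosen with earlier results of these data known. Genes named were members of the sterol lists, up to 4 members of other lists with the smallest FDR plus some that missed the threshold, 10 genes per direction past 2-fold with a mean of at least 100 counts, 5 per direction with a mean of at least 1000 counts whatever the fold, and those past the FDR against MBV. Further members that complete a count of 5 or fewer were named after their values were seen. Results of some genes that meet these rules are not reported here. Of the named genes Tubb3, Idi1, Tm7sf2, Cyp51, Mbtps2, Srebf1, Srebf2, Scap, Ggps1, Pdss2, Rhoa, Soat1, Usp2, Gapdh, Slc6a9, Slc16a8, Stra6, Nos3, Rcvrn, Glul, Car14, Map3k12, Gpr34, Cxcl10, Cxcl16, C2, Atf5, Aars, Ndufb5, Mvd, Col4a1 and Col4a2 also share positions with another gene.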

Additional observations from a re-analysis of the deposited data

How the results depend on the processing

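Against PBS the number of genes past the FDR stayed within 1.5 times of 3773 under every other test, scaling and filter tried, and ran from 1649 to 4330 as each library was left out. It was 1649 without PBS replicate 1, 2475 without PBS replicate 2 and 2214 without fluvastatin replicate 2. The number also past 2-fold ran from 83 to 319 with a library left out, was 518 with a fold of 1.5, and was 11 in a test against a minimum of 1.5-fold. Of these 11 genes Col4a3, Hdc, Gm20721, Isyna1, Glb1l3, Pmel, Dct and Adamts19 are described above, and Olfr769, Olfr1031 and Gm49388 were named after their values were seen. Against MBV the count of 5 became 127 with DESeq2, 1 with its size factors in edgeR, 11 without a filter, 16 in 1 fit of 9 libraries, and 0 to 23 with a library left out. No named gene with a call changed direction in a setting in which it was fitted. Over the settings 2308 of the values of named genes against PBS stayed on the same side of the threshold, 184 lost a call and 44 gained one. Against MBV only members of the sterol lists and genes past the FDR there were followed, and the numbers were 408, 31 and 16. The causes were not tested.

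Replicate numbers did not pair the samples. Deviations of same-numbered PBS and fluvastatin libraries correlated at 0.0186, -0.0315 and 0.114, and not every library correlated best with its own number. With the replicate block 3612 genes passed the FDR against PBS, of which 202 passed 2-fold, and 16 cholesterol synthesis genes were higher. Against MBV the replicate block left 0 genes past the FDR with edgeR, with 1530 at an unadjusted p under 0.05, where DESeq2 without the block called 127.

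The library set of PBS differs from that of fluvastatin and MBV, and set and treatment cannot be told apart. Genes of few counts such as Ccl2 fell under the count minimum against PBS, and their values rest on the settings with another filter.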
